A study of Mus musculus with 20 samples.

Results

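The genes described here are 37 mouse genes of the p53 pathway and the DNA damage response, out of 56221 genes counted in all. They were taken by symbol from a list chosen with earlier results of these data known. Each of the 37 had a row in all 3 count tables of the study. The libraries are bulk RNA-seq of sorted cDC1s, the type 1 conventional dendritic cells of the mouse, which bear the chemokine receptor XCR1 and cross-present antigen to T cells. TLI/ATS is total lymphoid irradiation combined with anti-thymocyte serum, a regimen used to induce transplant tolerance, so the mice of 3 of the 8 groups had been irradiated. In the first table, XCR1+CD8a+ cDC1s of WT C57BL/6 mice came from animals given TLI/ATS, labelled day 15, and from untreated animals, with 2 libraries per group. Collection is described as being 1 day after the final dose, so no later time after irradiation was sampled. The second table held the EpoR+ and EpoR- fractions of XCR1+CD8a+ cDC1s from EpoR-tdTomato reporter mice, both after TLI/ATS and both labelled day 15, with 2 libraries each. No untreated library of the reporter mice was used, so this table compares fractions that both came from irradiated mice. The third table held cDC1s of peripheral lymph nodes (pLN) and spleen from Epor-Xcr1-Cre cKO mice, in which Cre is driven from Xcr1, and from Eporflox/flox controls (Ctrl), with 3 libraries in each of 4 groups and no irradiation in the labels. The gates differed between the tissues, migratory XCR1+SIRPa- cells in pLN and CCR7+XCR1+SIRPa- cells in spleen, so tissue and gate cannot be told apart. Ages were not given, the tissue of the first 2 tables was not labelled, and no label said that replicates came from separate mice, so each p-value measures only the spread between these libraries.

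In the DNA damage response, breaks in DNA activate the kinases ATM and ATR, which act through CHK1 and CHK2 and stabilise the transcription factor p53, encoded by Trp53. MDM2 and MDM4 hold p53 down in resting cells, and Mdm2 is itself a p53 target, which closes a feedback loop. Activated p53 switches on genes of cell cycle arrest, repair, redox control and cell death, and in mouse Langerhans cells the arrest gene Cdkn1a is known to support survival after ionising irradiation.

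The list holds genes upstream of p53 as well as its targets, and the p53 sites found in members' promoters are shown because they mark the few members whose start region itself carries the motif. RefSeq promoter windows on GRCm38.p6, running from 250 bases before to 50 bases after a gene's start, were held for 29 of the 37 genes. They were searched on the gene's strand, which covers both strands since the motif is palindromic, for 2 adjoining copies of the p53 consensus decamer with a spacer of at most 1 base and at most 3 mismatches in all outside the fixed core (C, then A or T at each of the next positions, then G). Such a site was present in 4 of the 29 genes (13.8%), against 332 of all 27025 genes with a window (1.23%). In the stretches printed here, 5′ to 3′ on the gene's strand, capitals mark the decamers.
Cdkn1a, chr17:29090913-29090962, plus strand, 1 mismatch: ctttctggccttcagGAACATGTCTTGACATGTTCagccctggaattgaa
Trp53, chr11:69580269-69580318, plus strand, 3 mismatches: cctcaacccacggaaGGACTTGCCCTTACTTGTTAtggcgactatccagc
Aen, chr7:78895932-78895961, plus strand, 3 mismatches: aagccGGGCTTGTCCGGGCAAGGAGcttcc
Tigar, chr6:127109731-127109780, minus strand, 3 mismatches: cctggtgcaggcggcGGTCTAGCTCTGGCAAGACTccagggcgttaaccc
The Cdkn1a site lay 51 to 32 bases before the start and the Trp53 site 75 to 56 bases before it. A perfect decamer on its own was present in 10 of the 29 genes (34.5%), against 9.55% of all genes with a window. These 10 were Trp53, Mdm2, Cdkn1a, Ccng1, Gadd45a, Aen, Ei24, Pml, Polk and Sesn1. A match describes the letters of the window only.

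Total counts ran from 40583507 to 77570149 per library in the first table, from 33660774 to 40127646 in the second and from 26618029 to 49700660 in the third. Levels are given as CPM, counts scaled to a common library size, with that size scaled by TMM (a trimmed mean of the ratios between libraries), which is the scale of the tests. Epor, the gene that the reporter sort and the knockout act on, had 236 and 127 counts after TLI/ATS and 0 in both untreated libraries. It had 525 and 657 counts in EpoR+ and 4 and 11 in EpoR- cDC1s, 0 in all 3 pLN cKO libraries against 24, 28 and 4 in pLN Ctrl, and 0, 2 and 0 in spleen cKO against 1, 0 and 6 in spleen Ctrl. Xcr1, the sort gene, was between 963 and 1025 CPM after TLI/ATS and between 719 and 745 CPM in untreated cDC1s. The lowest correlation of log2 CPM between libraries of a group was 0.898 in spleen Ctrl and between 0.947 and 0.972 in the other groups. The 12 cDC1 markers were all detected in every group, with summed levels of 12510 to 12800 CPM after TLI/ATS and 8919 to 9006 CPM in untreated cDC1s, and 0 of 12 changed there.

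Compared per length, as CPM per kilobase of exon, the members covered a wide range in every group. Btg2, an anti-proliferative p53 target, was the highest of the 37 after TLI/ATS at 562 ± 20.5 and in untreated cDC1s at 534 ± 5.37 CPM per kilobase (SD, n = 2 each). Cd82, a tetraspanin of the cell membrane, was next at 56.9 ± 0.651 after TLI/ATS and 49.7 ± 6.50 in untreated cDC1s, followed by Trp53 at 36.3 ± 4.07 and 35.9 ± 0.827 CPM per kilobase. Cdkn1a led the order in pLN cKO at 149 ± 2.75 and in pLN Ctrl at 129 ± 12.2 CPM per kilobase (SD, n = 3 each), ahead of Btg2 at 126 ± 7.30 and 110.1 ± 11.03. In EpoR+ cDC1s Cd82 led at 256 ± 3.11, ahead of Btg2 at 185 ± 30.8 CPM per kilobase, and in EpoR- cDC1s Btg2 led at 309 ± 30.4, ahead of Cd82 at 92.3 ± 3.55 (SD, n = 2 each). In spleen Btg2 came before Cdkn1a, at 248 ± 13.1 against 168 ± 2.77 in cKO and 214 ± 20.0 against 181 ± 8.51 CPM per kilobase in Ctrl. Eda2r, a receptor of the tumour necrosis factor family, was the lowest member in 7 groups and shared the lowest place with Ak1 (adenylate kinase) in untreated cDC1s. Levels of the 3 tables were counted separately, so these orders are read within a group only.

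The first comparison asks whether cDC1s of mice given TLI/ATS carried a p53 and DNA damage signature. No group had irradiation without the serum, so the effects of irradiation and serum cannot be told apart. None of the members changed at the threshold: of 35 tested, 0 had an edgeR quasi-likelihood Benjamini-Hochberg adjusted p under 0.05, against 465 of 17236 genes in all (2.7%, of which 86 were higher and 379 lower after TLI/ATS). At an unadjusted p under 0.05 there were 6 members (17.1%), against 15.7% of all genes tested. DESeq2 called 1 member, Phlda3, where it called 7.02% of all genes. Of the 35 log2 fold changes 21 were positive and 14 negative, with a median of 0.07 against 0.02 over all genes. The 95% interval lay wholly between -1 and 1 on the log2 scale for 21 of the 35, and the intervals of the other 14 reached beyond it.

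Trp53 stood at 135 and 159 CPM after TLI/ATS, against 143 and 148 CPM in untreated cDC1s. Mdm2 (chromosome 10, the ubiquitin ligase that degrades p53) stood at 77.8 and 53.5 CPM after TLI/ATS, against 57.4 and 54.4 CPM. Mdm4, the related inhibitor, had 31.6 and 21.5 CPM after TLI/ATS, against 40.9 and 34.6 CPM. The groups overlapped for Trp53 and Mdm2 and did not for Mdm4, which was lower in both treated libraries. Here and in later comparisons, the share of all genes without overlap is not given, so a lack of overlap describes the libraries only. The log2 fold changes were 0.02 for Trp53 (95% interval -0.42 to 0.45), 0.23 for Mdm2 (-0.37 to 0.83) and -0.51 for Mdm4 (-1.16 to 0.15). Among the sensors and kinases, 5 of 5 were tested and their log2 fold changes ran between -0.52 for Atm and 0.35 for Chek1, a kinase of the G2 checkpoint.

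Cdkn1a, the p21 inhibitor of cyclin-dependent kinases, had 64.4 and 108 CPM after TLI/ATS, against 73.1 and 72.6 CPM in untreated cDC1s. Ccng1, cyclin G1, which recruits a phosphatase to MDM2, had 104 and 72.4 CPM after TLI/ATS, against 68.3 and 76.7 CPM. In each of these genes a single treated library stood above the untreated pair, replicate 2 for Cdkn1a and replicate 1 for Ccng1 and Mdm2. The log2 fold changes were 0.24 for Cdkn1a (95% interval -0.48 to 0.96) and 0.28 for Ccng1 (-0.31 to 0.87). Without TLI/ATS replicate 2, the Cdkn1a value was -0.18, and without replicate 1 the Mdm2 value was -0.06.

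Phlda3, a p53 target that blocks AKT at the membrane, came nearest to the threshold. It had 8.11 and 12 CPM after TLI/ATS, against 3.26 and 2.81 CPM in untreated cDC1s. Both treated libraries were above both untreated ones, and the log2 fold change was 1.73 ± 0.30 (SE), with a 95% interval from 0.95 to 2.50 (edgeR quasi-likelihood, Benjamini-Hochberg adjusted p = 0.0645). DESeq2 put it past the threshold at an adjusted p of 0.000122. Zmat3, a p53 target that regulates splicing, had 6.13 and 6.04 CPM after TLI/ATS, against 4.58 and 2.98 CPM, a log2 fold change of 0.69 ± 0.31 that did not pass. Plk3, a stress-induced polo kinase, stood at 67.3 and 46.2 CPM after TLI/ATS, against 34.1 and 36.1 CPM, without overlap (log2 fold change 0.69 ± 0.24).

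**Figure D1:**
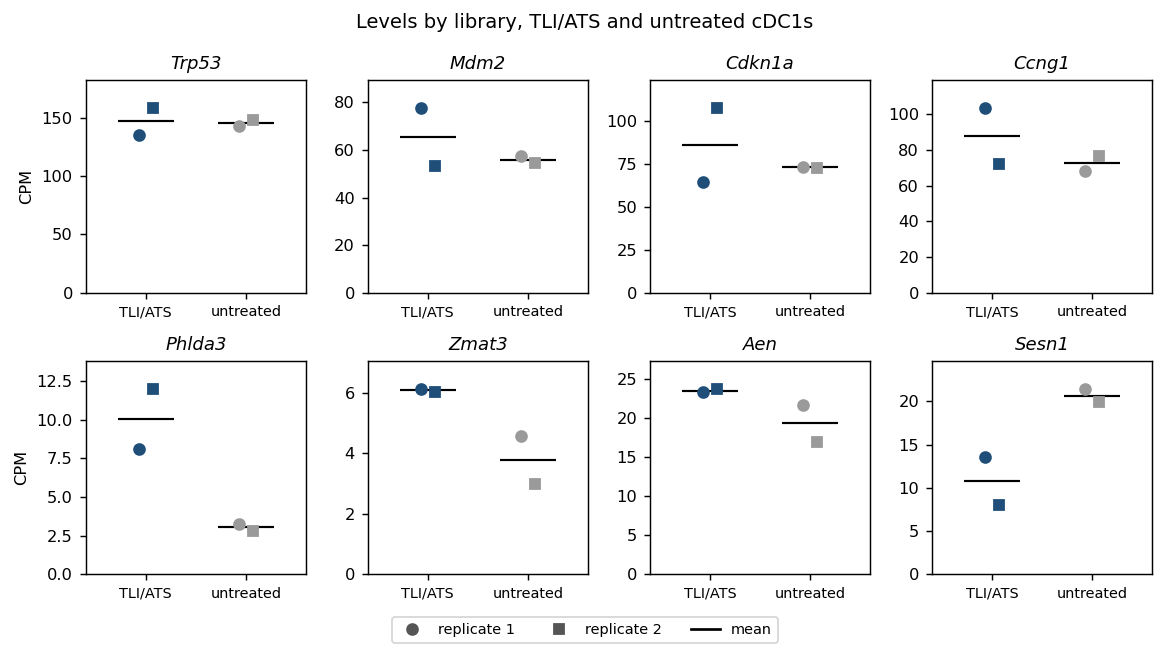
Levels in CPM (vertical axis from 0) of Trp53, Mdm2, Cdkn1a, Ccng1, Phlda3, Zmat3, Aen and Sesn1 in the 2 TLI/ATS and the 2 untreated libraries, with the replicate marked by its symbol and the mean by a line. Phlda3 lies at 8.11 and 12 CPM after TLI/ATS and at 3.26 and 2.81 CPM in untreated cDC1s, while Trp53, Mdm2, Cdkn1a and Ccng1 overlap between the groups.

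Other members with an unadjusted p under 0.05 were lower after TLI/ATS. Ephx1, the microsomal epoxide hydrolase, had 10.7 and 10.5 CPM after TLI/ATS, against 18.6 and 17.6 CPM in untreated cDC1s. Sesn1, a sestrin that restrains mTORC1 and oxidative stress, had 13.6 and 7.98 CPM after TLI/ATS, against 21.4 and 19.9 CPM. Fas, the death receptor, had 13.2 and 17.1 CPM after TLI/ATS, against 24.8 and 22.4 CPM. The treated libraries of these genes, and of the polo kinase Plk2, were all below the untreated ones. Log2 fold changes were -0.77 ± 0.20 for Ephx1, -0.94 ± 0.31 for Sesn1, -0.64 ± 0.23 for Fas and -0.62 ± 0.22 for Plk2 (SE), with edgeR quasi-likelihood Benjamini-Hochberg adjusted p-values of 0.141, 0.25, 0.27 and 0.27. The repair genes Ddb2, Xpc, Polk, Ercc5 and Rrm2b had log2 fold changes between -0.33 and 0.26, and in each of them except Rrm2b the groups overlapped. With so few libraries per group, a lack of overlap is not read as a change by itself. Aen, an apoptosis nuclease whose promoter site is printed above, had 23.3 and 23.7 CPM after TLI/ATS, against 21.7 and 16.9 CPM, and Tigar, a regulator of glycolysis, had 9.70 and 7.86 CPM, against 8.997 and 9.15 CPM. Eda2r had 2 and 0 counts after TLI/ATS and 0 in both untreated libraries and, like Ak1, was too low to be tested. Ak1 had 10 counts in each treated library and 0 in both untreated ones, at least 4.33-fold higher when the untreated group as a whole is set at 3 counts, the limit that a count of 0 allows.

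**Figure D2:**
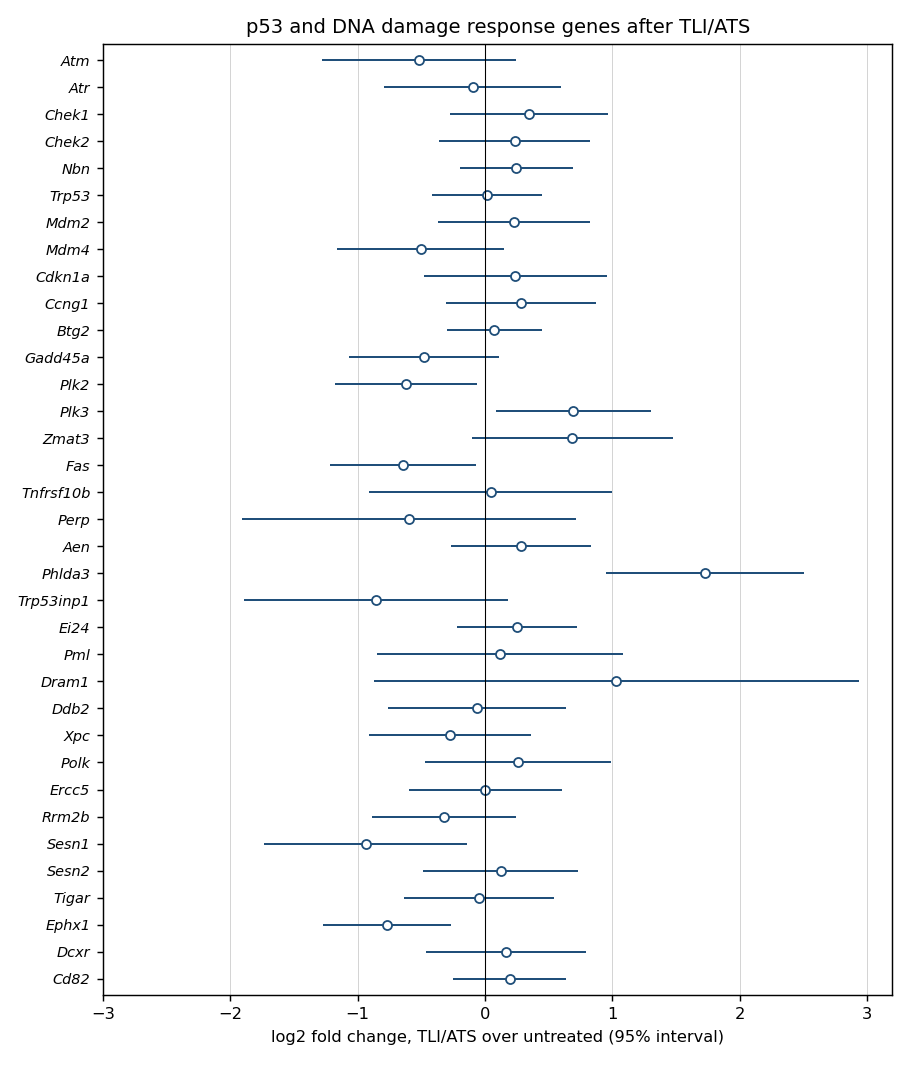
Log2 fold change of TLI/ATS over untreated (horizontal axis, dimensionless) for the 35 members tested, ordered by role, with lines for the 95% interval and open circles because no member passed the threshold. Phlda3 at 1.73 has the highest value, and 6 members have intervals that leave out 0.

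Leaving out a treated library changed the count most, since the spread then came from the untreated pair alone and the lone treated library was assumed to vary like it. Without replicate 1, 10 members passed (4 higher, 6 lower) where 27.6% of all genes did, and without replicate 2, 9 passed (6 higher, 3 lower) where 26.1% of all genes did. Pml, the scaffold of nuclear bodies, passed in both and in opposite directions, at a log2 fold change of -0.51 without replicate 1 and 0.56 without replicate 2. Phlda3 passed in both, at 1.99 and 1.42, as did Plk3, Ephx1 and Sesn1 with their directions kept.

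Markers of other cells moved with this comparison. All 10 T cell markers and all 8 B cell markers were lower after TLI/ATS, with summed levels of 16.6 to 20.5 CPM after TLI/ATS against 700.1 to 703 CPM in untreated cDC1s for T cells, and 43.6 to 48.9 against 565 to 581 CPM for B cells. Of the 8 plasmacytoid dendritic cell markers 6 were lower, with sums of 236 to 262 CPM after TLI/ATS against 1037 to 1052 CPM. Of the 12 macrophage markers 8 were higher, with sums of 1438 to 1807 CPM after TLI/ATS against 495 to 497 CPM, and 8 of 10 erythroid markers, among them Epor, were higher, with sums of 1431 to 1471 against 206 to 215 CPM. No macrophage, T cell or B cell marker was at 0 in either group. Their part in the members' values was not tested, and in such bulk libraries fewer cells of a type and less RNA per cell cannot be told apart.

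Of 20 further p53 targets, 18 were tested, 1 rose and 1 fell, where 2.7% of all genes passed in either direction. Gdf15, a secreted stress cytokine, averaged 11.6 ± 1.03 CPM after TLI/ATS and 0.558 ± 0.354 CPM in untreated cDC1s (SD, n = 2 each; log2 fold change 4.37 ± 0.51 SE; edgeR quasi-likelihood, Benjamini-Hochberg adjusted p = 0.0244). Trp53i11, a p53-inducible protein, averaged 6.10 ± 1.82 CPM after TLI/ATS and 27.7 ± 0.410 CPM in untreated cDC1s, a log2 fold change of -2.18. The apoptosis effectors Bax, Pmaip1 and Bbc3 did not pass, at log2 fold changes of 0.38, 0.23 and 0.06. None of 12 end joining genes and none of 16 homologous recombination and Fanconi genes passed. Of 26 cell cycle genes, 3 rose (Ccnb2 by 1.18, Cdc20 by 1.04 and Rrm2 by 1.01) and none fell, with a list median of 0.77 against 0.02 over all genes. Of 18 interferon genes Isg15 alone passed, at a log2 fold change of 1.38.

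The second comparison sets EpoR+ against EpoR- cDC1s, both after TLI/ATS, and asks whether the damage genes differ with EpoR. Of the 37 members, all were tested and 7 changed (18.9%), against 16.7% of the 15627 genes tested in all. At an unadjusted p under 0.05 there were 10 members (27.0%), against 29.9% of all genes, and DESeq2 called 8, where it called 19.4% of all genes. The members' share was near that of all genes by either count, and their median log2 fold change was 0.02, the same as over all genes. The 6 that rose (11.9% of all genes did) were Sesn1, Cd82, Ephx1, Dram1, Dcxr and Gadd45a, and Btg2 fell (4.75% of all genes did). None of the p53 core, the sensors or the repair genes was among them in this fit, which leaves out replicate number. The calls with a replicate block, which differ on this point, are given at the end.

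Sesn1 had 50.1 and 48.9 CPM in EpoR+ cDC1s, against 8.54 and 9.16 CPM in EpoR- cDC1s. Its log2 fold change of 2.48 ± 0.15 (SE) gave the smallest p among the members (edgeR quasi-likelihood, Benjamini-Hochberg adjusted p = 0.000382). Its paralogue Sesn2, with 61.7 and 72.9 CPM in EpoR+ against 54.2 and 62.6 CPM in EpoR- cDC1s, did not pass. Ephx1 had 79.1 and 101.1 CPM in EpoR+ cDC1s, against 9.70 and 6.07 CPM in EpoR- cDC1s, the highest log2 fold change of the 37 at 3.51 ± 0.28. Dcxr, a reductase of sugars and carbonyls, had 39.4 and 41.1 CPM in EpoR+, against 20.8 and 17.9 CPM in EpoR- cDC1s (1.06 ± 0.15). Of the 6 metabolism and redox members 3 rose, where 11.9% of all genes did, and Sesn2, Tigar and Ak1 did not pass.

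Dram1, a lysosomal membrane protein of autophagy, stood at 25.5 and 26.4 CPM in EpoR+ cDC1s, against 3.70 and 2.32 CPM in EpoR- cDC1s (log2 fold change 3.10 ± 0.28). Cd82 stood at 775 and 761 CPM in EpoR+ cDC1s, against 285 and 269.7 CPM in EpoR- cDC1s (1.47 ± 0.10). Gadd45a, a stress sensor of the arrest group, stood at 6.44 and 9.21 CPM in EpoR+, against 1.99 and 2.92 CPM in EpoR- cDC1s (1.67 ± 0.36). In these 3 genes every EpoR+ library was above every EpoR- library. Gadd45a lost its call without EpoR+ replicate 1 (edgeR quasi-likelihood, Benjamini-Hochberg adjusted p = 0.0613), EpoR+ replicate 2 (0.168) or EpoR- replicate 1 (0.0522). Btg2 had 447 and 566 CPM in EpoR+ cDC1s, against 907 and 789 CPM in EpoR- cDC1s, a log2 fold change of -0.74 ± 0.15, and its adjusted p was 0.0805 by the same test without EpoR+ replicate 1.

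None of the p53 core passed in the fit without replicate number. Trp53 had 104 and 101.2 CPM in EpoR+ cDC1s, against 123.4 and 121 CPM in EpoR- cDC1s, without overlap and with a log2 fold change of -0.25 (95% interval -0.50 to 0.002). Mdm2 had 75.8 and 97.4 CPM in EpoR+, against 81.7 and 87.6 CPM in EpoR- cDC1s, a log2 fold change of 0.03 (-0.35 to 0.41). Ccng1, Phlda3, Zmat3 and Eda2r also overlapped between the fractions, at log2 fold changes of -0.06, -0.05, -0.27 and 0.37. Cdkn1a had 68.6 and 139 CPM in EpoR+ cDC1s, against 83.5 and 85.5 CPM in EpoR- cDC1s, so the 2 EpoR+ libraries lay on either side of the EpoR- pair.

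Several members differed by replicate number as well as by fraction. Plk3 had 48.8 CPM in replicate 1 and 227 CPM in replicate 2 of EpoR+, against 18.3 and 91.5 CPM in EpoR- cDC1s. Plk2 had 11.9 and 48.5 CPM in EpoR+, against 5.62 and 20.4 CPM in EpoR- cDC1s, and Mdm4 had 60.4 and 138.8 CPM in EpoR+, against 83.0 and 160.1 CPM in EpoR- cDC1s. In all 3 genes replicate 2 was the higher library of each fraction, and within each replicate number EpoR+ was above EpoR- for Plk3 and Plk2 and below it for Mdm4. None of the 3 passed the threshold in the fit without replicate number. The immediate early genes Nr4a1 and Atf3 and the heat shock gene Hspa1a, chosen after their values were seen, were also higher in replicate 2 of each fraction. Atf3 was at 118 and 518 CPM in EpoR+, against 151 and 441 CPM in EpoR- cDC1s, and Hspa1a, which shares reads with its near-identical copy, was at 62.1 and 363.5 CPM in EpoR+, against 149.9 and 495 CPM in EpoR- cDC1s. What the replicate numbers stand for is not stated in the labels, and the part of these genes' common shift in the members' values was not tested.

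**Figure D3:**
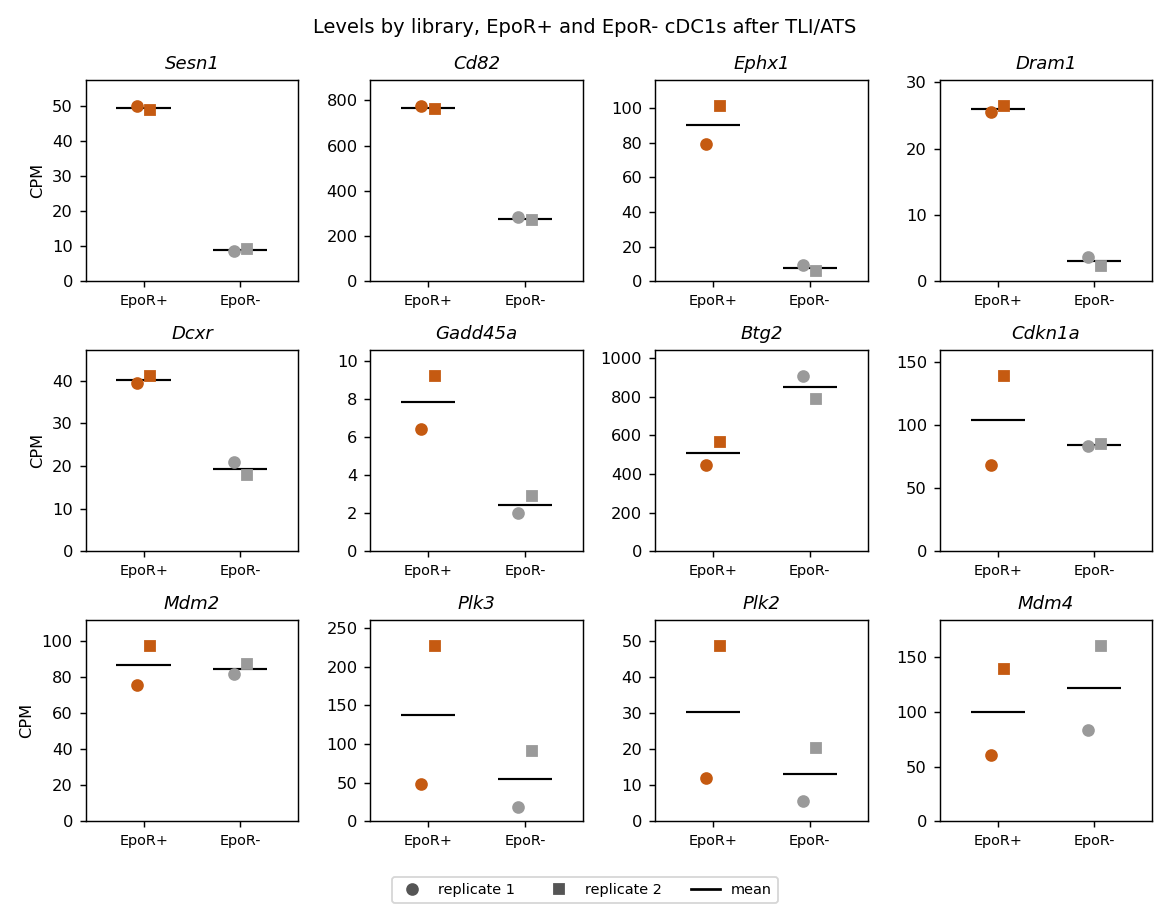
Levels in CPM (vertical axis from 0) of 12 members in the 2 EpoR+ and the 2 EpoR- libraries after TLI/ATS, with symbols for the replicate and a line for the mean. Sesn1, Cd82, Ephx1, Dram1, Dcxr and Gadd45a are higher in both EpoR+ libraries and Btg2 is lower, while Plk3, Plk2 and Mdm4 are higher in replicate 2 of each fraction.

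Markers of macrophages moved with this comparison, with a list median of 6.52 on the log2 scale. All 12 were higher in EpoR+ cDC1s, with summed levels of 20870 to 21070 CPM in EpoR+ against 416 to 419 CPM in EpoR- cDC1s, and none was at 0. All 10 erythroid markers, Epor among them, were higher as well, with sums of 1851 to 2258 against 175 to 264 CPM, and 11 of 12 cDC1 markers were lower, with sums of 7676 to 9151 against 16370 to 18130 CPM. Sirpa, which cDC1s carry little of, was at 1845 and 1734 CPM in EpoR+, against 33.5 and 24.7 CPM in EpoR- cDC1s. The part of these cells in the 7 members that changed was not tested.

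Of the further p53 targets 19 were tested, 2 rose (Steap3 by 3.49 and Trp53i11 by 1.70) and 2 fell (Apaf1 and Cyfip2, log2 fold changes -0.68 and -0.66). Steap3, an iron reductase, averaged 35.8 ± 6.60 CPM in EpoR+ and 3.19 ± 0.0269 CPM in EpoR- cDC1s (SD, n = 2 each). Gdf15, the further target that rose after TLI/ATS, was higher in EpoR+ cDC1s by 8.09 ± 1.77 (SE) on the log2 scale. It did not pass (edgeR quasi-likelihood, Benjamini-Hochberg adjusted p = 0.0739). Xrcc5, the Ku80 subunit, was the 1 end joining gene of 12 that rose, at 9.35 ± 0.07 CPM in EpoR+ and 1.22 ± 0.587 CPM in EpoR- cDC1s. None of 16 homologous recombination and Fanconi genes and none of 26 cell cycle genes passed. Of 18 interferon genes 11 rose and none fell, led by Ddx58 (3.28), Ifit3 (4.26), Gbp2 (2.32) and Oas1a (3.03) on the log2 scale. Over all genes 11.9% rose and 4.75% fell in EpoR+ cDC1s, which is the share to set beside these list counts.

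The labels of the third table name no irradiation, so its members are read as levels in cDC1s of pLN and spleen without a stated treatment. In Ctrl mice, 24 of 37 members differed between pLN and spleen (64.9%), against 41.3% of 17362 genes in all. Of these 17 were higher in pLN, against 21.0% of all genes, and 7 were lower, against 20.3%. In cKO mice 16 of 37 differed (43.2%), against 29.4% of all genes, with 12 higher (14.1% of all genes) and 4 lower (15.3%). The median log2 fold change of the members was 0.45 in Ctrl and 0.31 in cKO, against -0.01 and 0.00 over all genes. Of the 24 and the 16 members called, 15 were shared, all in the same direction, which is 62.5% of the Ctrl calls and 93.8% of the cKO calls. The 2 comparisons have no library in common, though both come from the same fit. Over all genes the shared calls were 58.9% of the Ctrl calls and 82.7% of the cKO calls.

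The TMM scaling bears on these counts. On library totals alone, the median over all genes moved up by 0.29 in Ctrl and by 0.25 in cKO (and down by 0.12 in the TLI/ATS comparison), so the folds here are relative to a median gene held near 0. On library totals the calls over all genes split into 5273 higher and 2408 lower in Ctrl and 3996 and 1752 in cKO, against 3651 and 3518 and 2454 and 2653 with TMM, and the members' calls were 19 higher and 5 lower in Ctrl and 18 and 3 in cKO. Mdm4, lower in pLN by TMM, was at a log2 fold change of 0.04 on totals, and Mdm2 kept its sign without passing, at -0.17 in Ctrl and -0.10 in cKO.

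Of the 5 genes of DNA repair and nucleotide supply, 4 rose in pLN Ctrl and 5 in pLN cKO, where 21.0% and 14.1% of all genes rose. Several of the cKO calls rested on single libraries. Ddb2, which recognises ultraviolet lesions, had 14.4, 11.3 and 16.5 CPM in pLN Ctrl, against 3.51, 3.21 and 3.54 CPM in spleen Ctrl. Xpc, its partner in damage recognition, had 5.50, 6.67 and 12.04 CPM in pLN Ctrl, against 1.30, 1.73 and 1.38 CPM in spleen Ctrl. Every pLN library was above every spleen library in both genes, and their log2 fold changes were 2.04 ± 0.25 and 2.46 ± 0.40 (SE; edgeR quasi-likelihood, Benjamini-Hochberg adjusted p = 8.92e-06 and 0.000158). In cKO mice the values were 0.85 ± 0.24 for Ddb2 and 1.11 ± 0.38 for Xpc, again without overlap. Polk, a translesion polymerase, rose by 1.13 in Ctrl and 1.197 in cKO, and Rrm2b, the p53-inducible subunit of ribonucleotide reductase, by 0.84 and 0.83. Ercc5, an endonuclease of excision repair, passed in cKO (0.51) and not in Ctrl (0.28). Its cKO call was lost without any 1 of the 6 cKO libraries (adjusted p between 0.0536 and 0.137 by edgeR quasi-likelihood) and without the filter on low counts (0.127). The cKO call of Xpc was lost without spleen or pLN cKO replicate 1 or 3 (highest adjusted p 0.149), that of Rrm2b without spleen or pLN cKO replicate 1 or 2 (0.0773) or the filter (0.0573), and that of Ddb2 without spleen cKO replicate 1 (0.062), all by edgeR quasi-likelihood. The Ctrl call of Rrm2b was lost without pLN Ctrl replicate 2 (0.051). Where a member passed in 1 genotype and not in the other, the difference between genotypes is the interaction given further on, and no member passed that test. Of the exon bases of Ddb2 23.8% overlap Acp2 on the opposite strand, which unstranded counting does not separate.

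Among the arrest genes the directions split. Ccng1 had 159, 138 and 121 CPM in pLN Ctrl, against 39.8, 54.5 and 49.2 CPM in spleen Ctrl, and 119.5, 85.2 and 114 CPM in pLN cKO, against 57.0, 64.7 and 59.9 CPM in spleen cKO. Its log2 fold change was 1.54 ± 0.15 in Ctrl and 0.81 ± 0.15 in cKO, without overlap in either genotype. Btg2 went the other way, at 323, 316 and 267 CPM in pLN Ctrl, against 525, 602 and 631 CPM in spleen Ctrl. It fell by 0.96 in Ctrl and by 0.97 in cKO on the log2 scale (edgeR quasi-likelihood, Benjamini-Hochberg adjusted p = 7.76e-07 and 1.07e-06). Plk3 fell by 1.57 and 1.36. Cdkn1a had 413, 499.7 and 459 CPM in pLN Ctrl, against 656, 610.1 and 667 CPM in spleen Ctrl, a log2 fold change of -0.49 ± 0.07. In cKO mice it had 525, 526 and 542 CPM in pLN, against 588, 596 and 608 CPM in spleen, and at -0.17 ± 0.07 did not pass (adjusted p = 0.102 by edgeR quasi-likelihood, Benjamini-Hochberg adjusted). Zmat3 did not pass in either genotype, at -0.99 ± 0.47 in Ctrl and 0.31 ± 0.46 in cKO.

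Of the 10 death and survival genes, 7 rose and 2 fell in pLN Ctrl, where 21.0% of all genes rose and 20.3% fell. In pLN cKO 3 of them rose and 1 fell, against 14.1% and 15.3% of all genes. Phlda3 had 14.2, 20.1 and 15.7 CPM in pLN Ctrl, against 1.48, 5.74 and 1.99 CPM in spleen Ctrl, a log2 fold change of 2.45 ± 0.42, and it was 1.83 ± 0.40 in cKO. Pml rose by 0.75 and 0.53 and Trp53inp1, an autophagy and death cofactor of p53, by 0.55 and 0.43. Aen (1.68), the death receptor Tnfrsf10b (1.25) and Ei24 (0.45) passed in Ctrl and not in cKO. The call of Ei24 was lost without spleen or pLN Ctrl replicate 3, and the cKO call of Trp53inp1 without pLN cKO replicate 1. Fas fell by 0.72 in each genotype, at 115, 105 and 110.1 CPM in pLN Ctrl, against 159, 189.6 and 195 CPM in spleen Ctrl. Dram1 was lower in Ctrl mice (-1.78 ± 0.39) and at -0.11 ± 0.38 in cKO mice. Eda2r had 39, 10 and 2 counts in pLN Ctrl and 0 in all 3 spleen Ctrl libraries, at least 11.4-fold higher with spleen Ctrl as a whole set at 3 counts. Its call was lost without any of 5 of the 6 Ctrl libraries, and in cKO mice, with 16, 0 and 16 counts in pLN against 0 in spleen, it was at least 7.66-fold higher and did not pass.

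**Figure D4:**
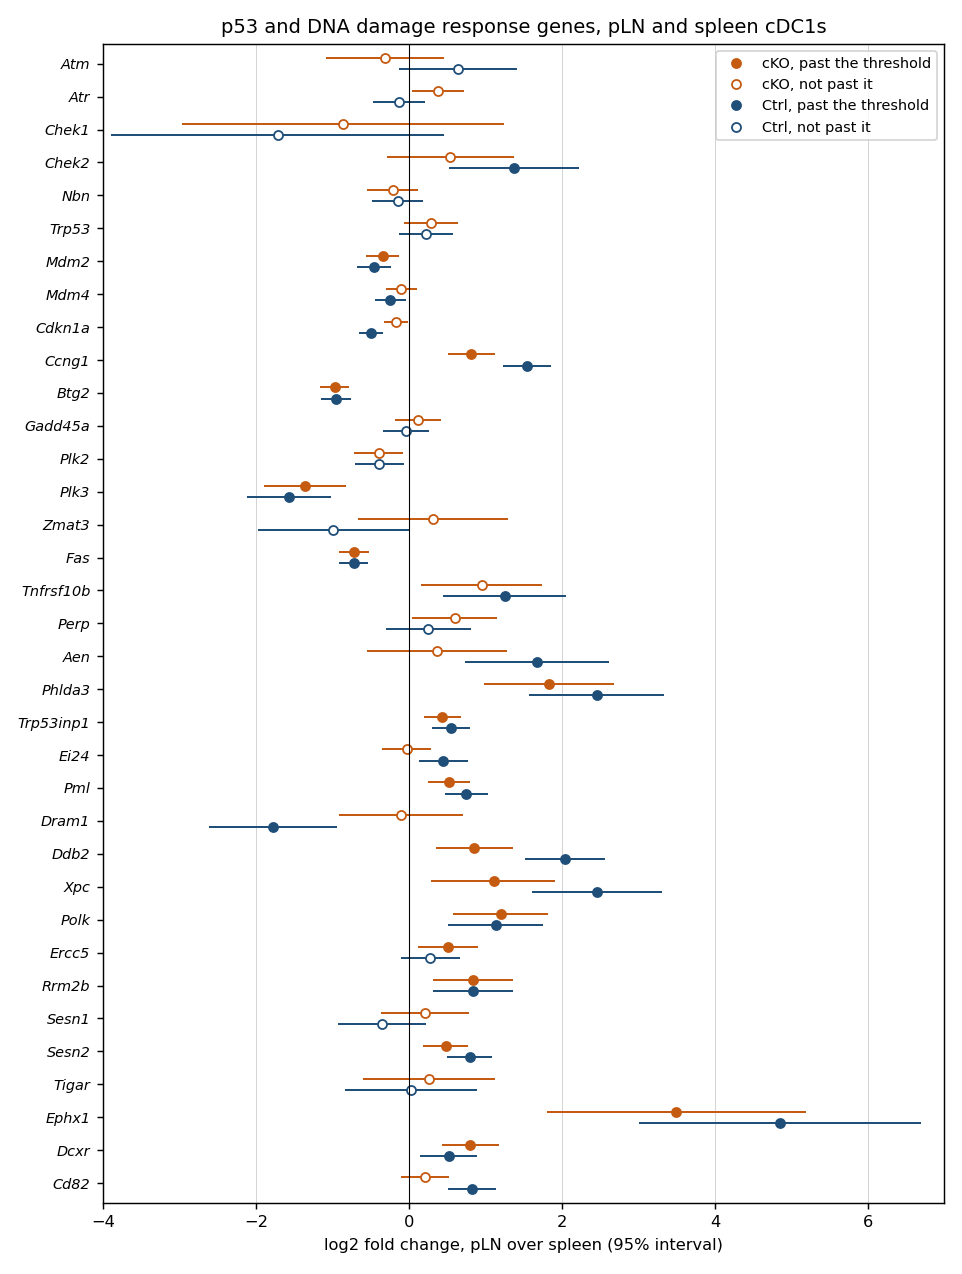
Log2 fold change of pLN over spleen (horizontal axis, dimensionless) in cKO and Ctrl mice for 35 members, with lines for the 95% interval and filled circles for those past the threshold; Eda2r and Ak1, at or near 0 in spleen, are left out. Ddb2, Xpc, Phlda3, Ephx1 and Ccng1 lie right of 0 in each genotype, and Btg2, Fas and Plk3 lie left of it.

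Metabolism and redox genes that passed were higher in pLN. Ephx1 had 43.2, 42.7 and 38.2 CPM in pLN Ctrl, against 0.151, 4.18 and 0.202 CPM in spleen Ctrl, the last from 5, 104 and 6 counts. The log2 fold change of 4.85 ± 0.84 was 7.88 without spleen Ctrl replicate 2, so that library sets its size. In cKO mice Ephx1 had 21.9, 28.4 and 31.9 CPM in pLN, against 1.85, 2.16 and 3.31 CPM in spleen (3.49 ± 0.77). Sesn2 rose by 0.79 in Ctrl and 0.48 in cKO and Dcxr by 0.52 and 0.80, while Sesn1, Tigar and Ak1 did not pass in either. The Ctrl call of Dcxr was lost without spleen Ctrl replicate 2 or pLN Ctrl replicate 1 or 2, and the cKO call of Sesn2 without spleen cKO replicate 1 or 3 or pLN cKO replicate 3. Cd82 rose in Ctrl (0.82) and at 0.21 did not pass in cKO.

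Trp53 did not pass between the tissues on the TMM scale, and 4 of the 5 sensors and kinases did not pass in either genotype. Trp53 had 47.0, 42.9 and 50.7 CPM in pLN Ctrl, against 52.6, 34.6 and 32.9 CPM in spleen Ctrl, a log2 fold change of 0.23 ± 0.17, and 0.29 ± 0.17 in cKO. Without spleen Ctrl replicate 1, its highest spleen library, the Ctrl value was 0.51 and passed (edgeR quasi-likelihood, Benjamini-Hochberg adjusted p = 0.00937). On library totals Trp53 passed as higher in pLN in both genotypes, at 0.51 in Ctrl and 0.53 in cKO (adjusted p = 0.0322 and 0.0343 by the same edgeR test). Mdm2 fell, by 0.46 in Ctrl and 0.34 in cKO, with 131, 115 and 125 CPM in pLN Ctrl, against 179.9, 158 and 171 CPM in spleen Ctrl. The cKO call of Mdm2 was lost without spleen or pLN cKO replicate 2 or 3. Mdm4 passed narrowly in Ctrl, at -0.25, and was at -0.10 in cKO. The Ctrl call of Mdm4 was lost with RLE scaling, library totals, no filter, DESeq2 and the replicate block, and without 5 of the 6 Ctrl libraries in turn. Chek2 was the 1 of 5 sensors and kinases that passed, at 1.37 ± 0.40 in Ctrl and not in cKO.

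**Figure D5:**
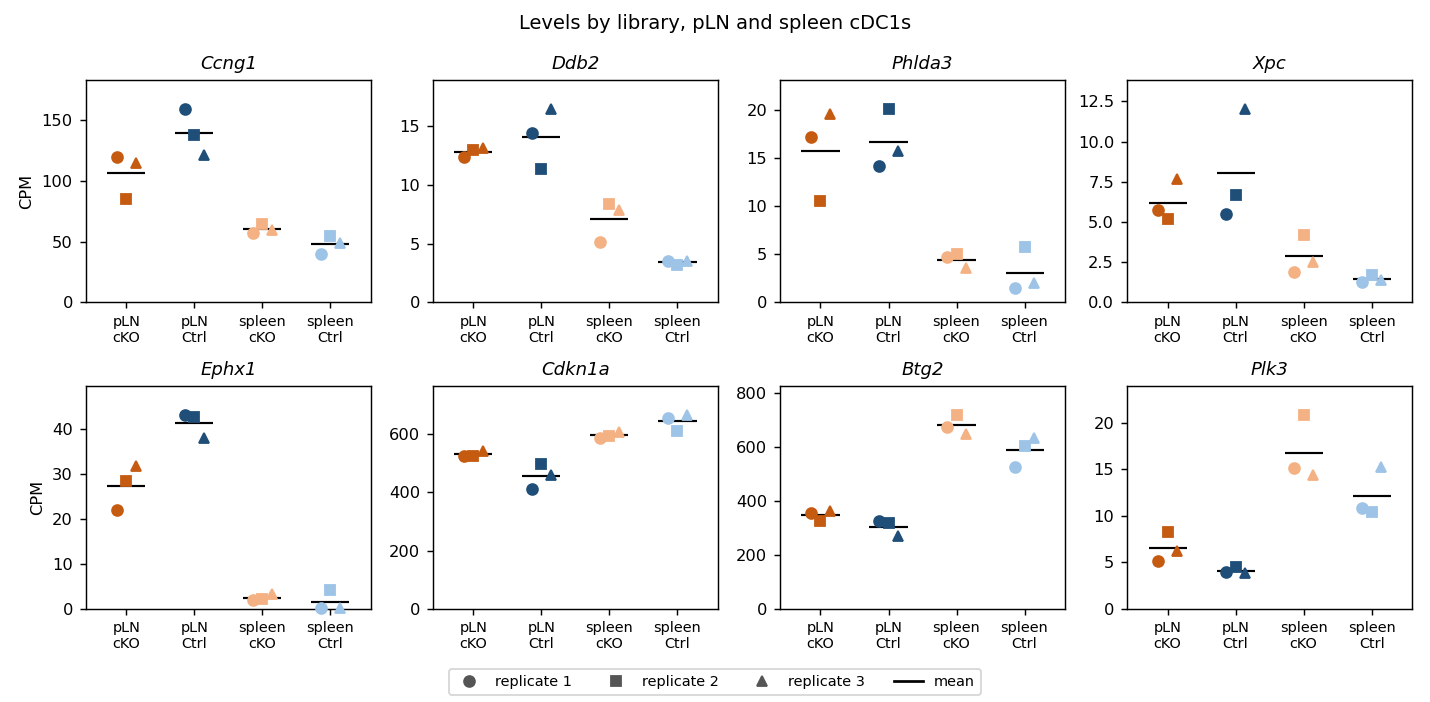
Levels in CPM (vertical axis from 0) of 8 members in pLN cKO, pLN Ctrl, spleen cKO and spleen Ctrl libraries (3 each), with symbols for the replicate and a line for the mean. Ccng1, Ddb2, Phlda3, Xpc and Ephx1 are higher and Btg2, Cdkn1a and Plk3 lower in every pLN library than in the spleen libraries of the same genotype.

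Other lists moved between the tissues too, where 21.0% of all genes rose and 20.3% fell in pLN Ctrl. In pLN cKO 14.1% of all genes rose and 15.3% fell. Of 12 end joining genes, 8 rose in pLN Ctrl and 5 in pLN cKO and none fell, with medians of 1.12 and 0.63. They included Dclre1c (the Artemis nuclease; 1.84 and 1.60), Poll (2.29 and 0.91), Xrcc6 (Ku70; 2.56 and 1.34) and Prkdc (1.33 and 0.84). Homologous recombination and Fanconi genes split, 5 higher and 3 lower of 16 in Ctrl and 3 and 1 in cKO, with Fancd2 at 2.85 and 1.99 and Rbbp8 at -1.57 and -1.01. Further p53 targets split as well, 5 higher and 3 lower of 18 in Ctrl and 2 and 3 in cKO, where Rps27l, whose reads its close paralogue Rps27 may share, (-1.16 and -0.63), Apaf1 (-0.91 and -0.40) and Pmaip1 (-0.92 and -0.80) fell and Trp53i11 rose (4.30 and 2.84). Of 26 cell cycle genes 9 rose and 10 fell in Ctrl, and 2 rose and 11 fell in cKO, with Ccnb2 at -2.09 and -2.04. Markers of other cells moved with the tissue. T cell markers were higher in pLN for 9 of 10 in each genotype (sums of 213 to 306 CPM in pLN against 84.0 to 102 CPM in spleen), and 10 of 12 cDC1 markers in Ctrl and 11 of 12 in cKO were lower. Plasma cell markers summed to 142 to 165 CPM in pLN cKO against 2526 to 2775 CPM in spleen cKO, and to 137.2 to 141 CPM in pLN Ctrl against 1219 to 1275 CPM in spleen Ctrl, with 4 of 6 lower in cKO, and 3 lower and 1 higher in Ctrl. Of 7 neutrophil and monocyte markers tested, 5 were lower in each genotype and 1 was higher in Ctrl, with sums of 6.91 to 7.64 CPM in pLN cKO against 56.3 to 67.8 CPM in spleen cKO, and 7.20 to 9.65 CPM in pLN Ctrl against 30.2 to 38.1 CPM in spleen Ctrl. Of 11 macrophage markers tested, 5 were lower in each genotype, and 1 was higher in cKO and 3 in Ctrl, with sums of 147 to 169 CPM in pLN against 251 to 321 CPM in spleen. Of 6 erythroid markers tested 4 were lower in each genotype, with sums of 0.734 to 1.86 CPM in pLN against 64.3 to 112 CPM in spleen, and of all 10 on that list 5 were at 0 in pLN Ctrl and 3 in pLN cKO. No plasma cell, macrophage or T cell marker was at 0 in any group, while Ly6g was at 0 in all 4 groups and Retnlg in both pLN groups. The part of these cells and of the differing gates in the members' values was not tested.

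The last comparisons ask whether losing Epor in cDC1s changes the damage genes. Epor itself was at 1, 0 and 6 counts in spleen Ctrl, against 0, 2 and 0 in spleen cKO. It was at 24, 28 and 4 counts in pLN Ctrl. The controls thus held few Epor transcripts to lose at this depth, in spleen above all. In spleen, 0 of 37 members passed (edgeR quasi-likelihood, Benjamini-Hochberg adjusted p under 0.05), against 106 of all genes (0.611%). At an unadjusted p under 0.05 there were 11 (29.7%), against 13% of all genes, and DESeq2 called 1, where it called 3.72% of all genes. In pLN, 0 of 37 passed, against 0.455% of all genes, with 5 at an unadjusted p under 0.05 (13.5%, against 7.51%) and 0 by DESeq2, which called 1.17% of all genes. The member medians were 0.03 in spleen and -0.13 in pLN, against 0.00 over all genes in each.

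Ddb2 came nearest in spleen, with 5.12, 8.35 and 7.86 CPM in cKO, against 3.51, 3.21 and 3.54 CPM in Ctrl. Every cKO library was higher, and the log2 fold change was 1.05 ± 0.24 (edgeR quasi-likelihood, Benjamini-Hochberg adjusted p = 0.0665). It passed by DESeq2 (adjusted p = 0.00126) and without the filter on low counts (0.0282 by edgeR). In pLN Ddb2 had 12.4, 12.98 and 13.1 CPM in cKO, against 14.4, 11.3 and 16.5 CPM in Ctrl, with overlap. Atr, the kinase of stalled replication, had 21.2, 22.3 and 24.4 CPM in spleen cKO, against 37.7, 29.7 and 25.5 CPM in spleen Ctrl (-0.45 ± 0.16), and Dram1 had 7.14, 5.22 and 3.18 CPM in cKO, against 15.5, 10.04 and 7.56 CPM in Ctrl (-1.09 ± 0.39). Cd82 had 89.3, 102 and 87.7 CPM in spleen cKO, against 86.1, 49.8 and 73.2 CPM in spleen Ctrl, a log2 fold change of 0.41 ± 0.15 that did not pass.

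None of the p53 core passed with Epor in spleen. Trp53 was at -0.29 (95% interval -0.65 to 0.06), Mdm2 at -0.16 (-0.37 to 0.06), Cdkn1a at -0.11 (-0.27 to 0.05) and Ccng1 at 0.34 (0.03 to 0.65) on the log2 scale, cKO over Ctrl. Phlda3 was at 0.54 and Zmat3 at -0.32, and Eda2r had no count in any spleen library. Leaving out spleen Ctrl replicate 2 let Ephx1 pass at 3.78, and leaving out spleen Ctrl replicate 3 let Aen pass at 1.502. Aen had 187 counts in that library and 50 and 43 in the other Ctrl libraries, so each of these calls rests on a library being left out.

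In pLN the smallest p-values belonged to Cdkn1a, Ccng1, Plk3 and Btg2. Cdkn1a had 525, 526 and 542 CPM in pLN cKO, against 413, 499.7 and 459 CPM in pLN Ctrl, a log2 fold change of 0.22 (95% interval 0.06 to 0.37; edgeR quasi-likelihood, Benjamini-Hochberg adjusted p = 0.421). Ccng1 had 119.5, 85.2 and 114 CPM in cKO, against 159, 138 and 121 CPM in Ctrl (-0.39 ± 0.14). The groups did not overlap in either gene. Plk3 was at 0.67 ± 0.25 and Btg2 at 0.20 ± 0.09, while Trp53 (-0.23), Mdm2 (-0.04), Phlda3 (-0.08), Eda2r (-0.81) and Zmat3 (0.98) also did not pass. None of the alternatives run, other scalings, no filter, DESeq2, a replicate block, the 6 pLN libraries alone or leaving out any library, gave a member past the threshold in pLN.

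The difference of the cKO effect between pLN and spleen was tested as an interaction, and 0 of 37 members passed (edgeR quasi-likelihood, Benjamini-Hochberg adjusted p under 0.05), against 0.317% of all genes. At an unadjusted p under 0.05 there were 9 members (24.3%, against 12.5% of all genes), and DESeq2 called 2, Ddb2 and Ccng1, where it called 3.04% of all genes. For Ccng1 the pLN effect minus the spleen effect was -0.73 ± 0.20 on the log2 scale (adjusted p = 0.159 by edgeR quasi-likelihood, Benjamini-Hochberg adjusted). The same quantity was -1.18 ± 0.34 for Ddb2, 0.33 ± 0.11 for Cdkn1a, 1.67 ± 0.54 for Dram1, 0.06 for Trp53, 0.11 for Mdm2, -0.62 for Phlda3 and 1.30 for Zmat3. On library totals the calls over all genes split into 15 higher and 41 lower, against 22 and 33 with TMM, and in the spleen cKO comparison into 102 higher and 9 lower, against 85 and 21.

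Of the other lists, which were chosen with earlier results of these data known, Rad50 rose in cKO cells of each tissue. Rad50 forms a complex with the member Nbn. It averaged 214 ± 10.7 CPM in pLN cKO and 118 ± 5.15 CPM in pLN Ctrl, and 201 ± 16.3 CPM in spleen cKO and 138 ± 5.26 CPM in spleen Ctrl (SD, n = 3 each). Its log2 fold changes were 0.86 ± 0.08 in pLN and 0.54 ± 0.08 in spleen (SE; edgeR quasi-likelihood, Benjamini-Hochberg adjusted p = 3.48e-05 and 0.00654). Nbn itself was at -0.03 in pLN and 0.04 in spleen and did not pass. Apaf1 (0.52) and Isg15 (0.61) rose in pLN cKO, and no other gene of the end joining, cell cycle, interferon, homologous recombination or further p53 target lists passed in either tissue. Plasma cell markers moved with spleen cKO, where 3 of 6 were higher (sums of 2526 to 2775 CPM in cKO against 1219 to 1275 CPM in Ctrl) and none was at 0, and their part in the members' values was not tested.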

How the data were processed

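The authors deposited raw read counts per gene, whole numbers without normalization, in 3 tables fitted separately. Per the submitters' processing notes, reads passed through HISAT2 and featureCounts on GRCm38 or mm10. Per the file headers, featureCounts (2.0.3 and 2.0.8) ran unstranded in the EpoR and tissue tables and counted reads, not fragments, so that both mates of a pair may be counted. Counts carry no molecular identifiers, so floors of 3 counts cover counting error only.

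Groups came from sample titles. Genes were filtered (filterByExpr, minimum count 10, minimum total 15), scaled by TMM and tested with edgeR 4.0.16 (quasi-likelihood, robust; R 4.3.3), with Benjamini-Hochberg adjustment over all genes tested and a threshold of 0.05. The tissue table was fitted on its 12 libraries together. DESeq2 1.42.0, RLE scaling, library totals, no filter, a replicate block, leaving out libraries, 1 tissue alone and leaving out marker genes were the alternatives. The fit was tested on simulated data.

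The members and lists were chosen with earlier results of these data known. Named genes were Trp53, Cdkn1a, Mdm2, Ccng1, Phlda3, Eda2r and Zmat3, members past the threshold (or the 4 smallest p-values), and up to 4 per other list. No member shares over 25% of its exon bases with another gene. In the tissue table same-numbered libraries did not deviate together (correlations between -0.05 and 0.03), so replicate numbers were not used as pairs.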

Additional observations from a re-analysis of the deposited data

How the results depend on the processing

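Of the values of members named by rule, 996 kept their direction and their side of the threshold under an alternative, 23 gained a call, 53 lost one and 25 changed sign. In the TLI/ATS comparison, DESeq2 and the replicate block (7.33% of all genes) each called 1 member, Phlda3, and leaving out a library gave 0 to 10. With EpoR the replicate block called 14 members (9 higher and 5 lower) and 34.2% of all genes, adding Plk3, Plk2, Polk, Atm, Mdm4, Trp53 and Pml to the 7. In spleen cKO, no filter called 2 (Ddb2 and Cd82; 1.19% of all genes) and DESeq2 1, with 0 to 1 when a library was left out. For the difference of the cKO effect between tissues, no filter called 2 (Ccng1 and Cd82; 0.994% of all genes) and DESeq2 2, and leaving out a library gave 0 to 1, namely Ephx1 at -4.37 without spleen Ctrl replicate 2 or Aen at -2.30 without spleen Ctrl replicate 3. The cause was not tested. Leaving out libraries, pLN over spleen called 20 to 23 members in Ctrl, where it called 32.0 to 37.9% of all genes. In cKO it called 11 to 14 members and 20.8 to 24.5% of all genes. On library totals the members' median log2 fold change was 0.732 in Ctrl and 0.563 in cKO.

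None of the values that changed sign had passed the threshold except Mdm4 between tissues in Ctrl. On library totals Trp53 was at -0.11 after TLI/ATS, Mdm4 at 0.043 between tissues in Ctrl and Cdkn1a at 0.076 in cKO. Mdm2 with EpoR was at -0.002 by RLE scaling and -0.003 by DESeq2. Leaving out a library, the TLI/ATS values ran between -0.101 and 0.131 for Trp53, -0.177 and 0.568 for Cdkn1a, and -0.061 and 0.477 for Mdm2. With EpoR they ran between -0.291 and 0.708 for Cdkn1a, -0.15 and 0.192 for Mdm2, -0.176 and 0.057 for Ccng1, -0.237 and 0.166 for Phlda3, and -0.104 and 0.724 for Eda2r. In cKO comparisons they ran between -0.59 and 0.217 for Zmat3 in spleen, and in pLN between -0.152 and 0.047 for Mdm2, -0.268 and 0.14 for Phlda3, and -1.325 and 0.657 for Eda2r. For the difference between tissues Trp53 ran between -0.197 and 0.169.

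The deviations of same-numbered libraries from their group means had a correlation of 0.394 in the EpoR table and -0.018 in the TLI/ATS table. With 2 libraries per group the deviations of replicate 2 mirror those of replicate 1, so each is a single value. The labels do not tie the numbers to an animal or day, so the block is an alternative only. Under it Ercc5 between tissues in cKO (adjusted p = 0.0668, edgeR) and Eda2r (0.0727) and Mdm4 (0.0657) in Ctrl lost their calls. With 2 libraries per group, members with wide intervals, such as Dram1 after TLI/ATS, and those with few counts, such as Eda2r and Ak1, were not resolved at this depth.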
